A study of Homo sapiens with 4 samples.

Results

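The S100 calcium binding proteins examined here were S100A2, S100A3, S100A4, S100A6, S100A10, S100A11, S100A13 and S100A16, taken by gene name from a deposited table of fragment counts. All 8 names were found among the 59384 gene names that could be read, and 13 further S100 family genes were in the same table. The libraries came from Daoy, an established human medulloblastoma line. In the pLKO group, labelled wild type, cells carried the control virus, and in the shFABP4 group, labelled as a FABP4 knockdown, they carried a virus with a short hairpin RNA against FABP4, a fatty acid binding protein. All 4 libraries therefore came from cells infected with a lentivirus, 2 per group, and the labels give neither the number of hairpins nor the time after infection. The labels do not say whether the 2 libraries of a group are from different cultures. The p-values therefore reflect the spread between these libraries alone, which may be technical.

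S100 proteins are small cytosolic proteins with paired EF-hand loops that mostly work as dimers. On binding calcium they open a surface that holds a partner protein, and several are also released from cells and act on receptors. S100A10 is the exception in that its loops do not bind calcium and it stays in the open form, bound to annexin A2 at the membrane. Most S100A genes lie together on chromosome 1 in a region that also holds many genes of the skin barrier.

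The 5 stretches shown next are the bases before annotated starts of the genes on which the comparison of the groups turns, S100A10 with its neighbour S100A11, and S100A16 and S100A3, which were low relative to S100A6. They are RefSeq sequence on GRCh38.p14, all on the minus strand, written 5′ to 3′ with the annotated start just after the last base. Capitals mark GGGCGG or TGANTCA, searched on both strands, the letters of a GC box and of an AP-1 site. The S100A10 stretch (chr1:151993860-151994109) and the outer S100A16 stretch (chr1:153613146-153613387, ending 8 bases short of the start because an annotated exon covers them) lie just before the genes. The S100A11 stretch (chr1:152037005-152037254) and the inner S100A16 stretch (chr1:153609356-153609605) lie inside introns of longer transcripts of the same genes, and the S100A3 stretch (chr1:153549259-153549508) lies in an intron of a longer S100A4 transcript. No exon of the deposited table overlaps these stretches, whereas in the older release GENCODE 29 a longer first exon of the same gene covers the S100A10 stretch and the bases nearest the start in the S100A11 and S100A3 stretches.
S100A10: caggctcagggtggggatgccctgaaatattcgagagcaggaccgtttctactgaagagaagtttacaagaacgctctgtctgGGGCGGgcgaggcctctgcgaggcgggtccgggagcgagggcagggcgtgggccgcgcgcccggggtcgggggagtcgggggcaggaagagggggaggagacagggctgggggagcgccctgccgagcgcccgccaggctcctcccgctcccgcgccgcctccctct
S100A11: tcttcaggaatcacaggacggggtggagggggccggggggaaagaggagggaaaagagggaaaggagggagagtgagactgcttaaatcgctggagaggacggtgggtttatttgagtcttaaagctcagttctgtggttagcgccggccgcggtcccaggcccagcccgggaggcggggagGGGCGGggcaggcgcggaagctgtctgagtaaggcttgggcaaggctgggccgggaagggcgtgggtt
S100A16 outer start: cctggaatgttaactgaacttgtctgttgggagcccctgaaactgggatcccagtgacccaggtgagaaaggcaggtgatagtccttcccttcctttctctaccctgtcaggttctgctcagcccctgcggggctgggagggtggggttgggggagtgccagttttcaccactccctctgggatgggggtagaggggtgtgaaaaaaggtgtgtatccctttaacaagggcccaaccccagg
S100A16 inner start: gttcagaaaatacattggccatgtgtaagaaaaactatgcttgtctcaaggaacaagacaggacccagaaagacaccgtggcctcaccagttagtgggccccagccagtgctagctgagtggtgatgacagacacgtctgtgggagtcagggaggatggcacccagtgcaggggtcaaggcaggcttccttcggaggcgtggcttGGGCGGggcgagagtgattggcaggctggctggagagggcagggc
S100A3: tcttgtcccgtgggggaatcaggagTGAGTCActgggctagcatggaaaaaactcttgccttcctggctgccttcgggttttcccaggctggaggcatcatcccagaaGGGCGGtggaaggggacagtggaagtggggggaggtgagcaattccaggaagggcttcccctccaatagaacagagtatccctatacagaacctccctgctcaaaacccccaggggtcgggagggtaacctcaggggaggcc
Before their starts, S100A10 had 1 GGGCGG at 167 bases, S100A11 1 at 68 bases, S100A3 1 at 142 bases and the inner S100A16 start 1 at 45 bases, while the outer S100A16 start had none. Of 35116 promoter windows of 250 bases, 42.6% held this motif. Among the other members, S100A6 had 3 matches and S100A13 1. TGANTCA was present at 225 bases before S100A3 and at 52 bases before a start of S100A2, whereas 6.57% of all windows held it. TATAAA, found in 10.7% of windows, was present at 31 bases before S100A4 and at 29 bases before a start of S100A13. TGACNNNGC, the core of an antioxidant response element, was present at 245 bases before a start of S100A13 and in 10.9% of windows. The window with this match and the GGGCGG of S100A13 (chr1:153634362-153634611) lies beyond S100A13 as counted here, which ends at 153631360. It falls within the span of the neighbouring gene CHTOP. A match is a description of the letters and not evidence of binding.

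Depth ranged from 2539862 fragments in shFABP4 1 to 20431660 in shFABP4 2, with 8988961 and 13839885 in the pLKO libraries. The library shFABP4 1 stood apart, since it had a fragment in 51762 gene names against 22350 to 25560 in the others. For it, an expected background was set from coding genes that were at 0 in each of the remaining 3 libraries, at 3.44 to 18.4 fragments per kb of exon depending on GC content, which added up to 54.9% of that library. FABP4, the targeted gene, had 1 and 6 fragments in the pLKO libraries, against 14 in shFABP4 1 and 0 in shFABP4 2. In shFABP4 1 background alone predicts 4.71 of its fragments. At 2.97 times background, its count lay within the range of S100 genes near 0 elsewhere, given further on. By count FABP4 went against the label of shFABP4 1, but at these levels the counts do not check the knockdown either way. Here shFABP4 1 and shFABP4 2 therefore mean the libraries labelled so, and every direction rests on those labels. Of 12 markers of neural progenitors or medulloblastoma, VIM was abundant, while OTX2 and ATOH1 were at 0 in both pLKO libraries. VIM had 13811 and 21475 fragments in the pLKO libraries, against 2830 in shFABP4 1 and 131016 in shFABP4 2, and it rose among the high-signal genes defined further on (1.82, adjusted p = 0.0246, edgeR). Markers of fibroblasts, leukocytes, glia, melanocytes and adipocytes summed to between 0.779 and 16.8 CPM (fragments scaled to the counted total of a library) per list in pLKO. In shFABP4 1 the fibroblast list summed to 460, where background alone predicts 257. The glia list summed to 374 there against 357 predicted, and the melanocyte list, the lowest, to 50.4 against 39.8. In shFABP4 2 the fibroblast list was at 52.1, of which COL1A1 gave 50.6, against 5.45 and 4.77 in pLKO. The glia list was at 55.7, of which MBP gave 47.4, against 16.8 and 15.9 in pLKO. The leukocyte, melanocyte and adipocyte lists were at 1.17 to 5.82 in shFABP4 2. The keratinocyte list stood apart, at 245 and 243 CPM in the pLKO libraries, of which KRT10 alone gave 245 and 242. It summed to 217 in shFABP4 1, where background alone predicts 99.8, and to 357 in shFABP4 2. The part of these markers in the results was not tested.

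S100A6, also called calcyclin, was by far the most abundant of the 8 transcripts. The pLKO libraries held 92317 and 142872 of its fragments, shFABP4 1 held 7244 and shFABP4 2 held 247357. By fragments it ranked as number 3 of all gene names in both pLKO libraries, number 2 in shFABP4 1 and number 1 in shFABP4 2. The gene spans chr1:153534599-153536244 (GRCh38) with 971 bases of merged exons. Together the 8 genes made up 1.45% and 1.46% of each pLKO library, 0.382% of shFABP4 1 and 1.61% of shFABP4 2.

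As FPKM, the fragments per kb of exon scaled to the counted total of a library, the order in both pLKO libraries was S100A6, S100A16, S100A11, S100A13, S100A10, S100A3, S100A2 and S100A4. In pLKO the FPKM of S100A6 was 10604 ± 38.7 (SD, n = 2), S100A16 at 1597 ± 3.89 and S100A11 at 1034 ± 14.1. S100A13 at 207 ± 4.89 and S100A10 at 201 ± 1.10 were the closest neighbours in this order. S100A3 followed at 144 ± 4.21, S100A2 at 40.8 ± 0.401 and S100A4 at 11.4 ± 1.14. In both shFABP4 libraries S100A11 stood above S100A16 and S100A10 above S100A13, the reverse of both pLKO libraries. Exon lengths are merged over all transcripts of a gene, so these levels understate a gene of which a short form is used. Counting also ignored strand, and 33.5% of the exon bases of S100A13 are shared with other annotated genes, among them S100A1 on the opposite strand.

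**Figure D1:**
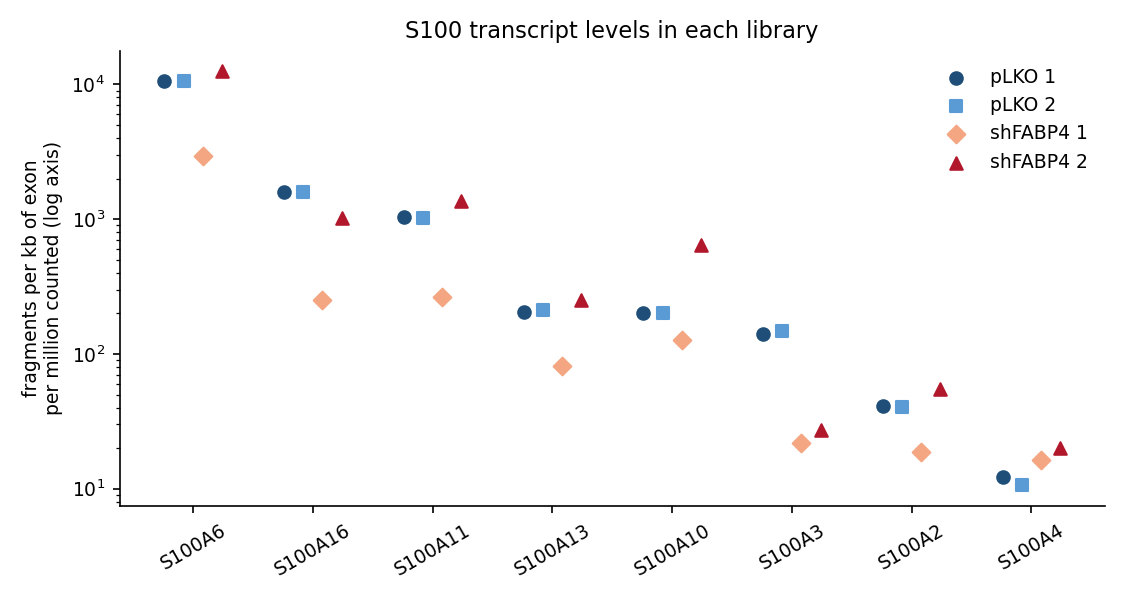
FPKM (log axis) for the 8 S100 genes, with 1 point per library. The order of S100A16 and S100A11, and that of S100A13 and S100A10, differs between the pLKO and the shFABP4 libraries, and all genes but S100A4 are lowest in shFABP4 1.

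Because the scale of shFABP4 1 depends on how its background is treated, the genes were first compared with each other inside each library, where library scaling cancels. The makeup of the S100 fragments was alike in the pLKO libraries. A chi-square test over the 8 counts gave 0.948 per degree of freedom (p = 0.468), while the shFABP4 libraries differed from each other by more than sampling noise (30.5 per degree of freedom). In both shFABP4 libraries S100A10 made up a larger part of the S100 fragments than in pLKO, and S100A16 and S100A3 a smaller part. The scarce S100A4 and S100A2 also held a larger part in both, at counts in shFABP4 1 that were only 3.89 and 4.52 times its background.

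S100A10 held 1.41% (95% Wilson interval 1.34 to 1.47) and 1.39% (1.34 to 1.44) of the S100 fragments in pLKO. It held 3.38% (3.04 to 3.76) in shFABP4 1 and 4.05% (3.98 to 4.12) in shFABP4 2, so that its mean share was 2.66 times the pLKO mean. These intervals cover counting error only. The shares of the groups did not overlap, and with the expected background subtracted the share in shFABP4 1 was 3.32%.

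S100A16, a widely expressed member of the family, held 18.7% and 18.7% of the S100 fragments in pLKO. Its share was 11.2% (95% Wilson interval 10.5 to 11.8) in shFABP4 1 and 10.8% (10.7 to 11.0) in shFABP4 2. The mean share in shFABP4 was 0.589 times that in pLKO, and the shFABP4 libraries lay close together. S100A3, a cysteine-rich member best known from the hair cuticle, held 0.817% and 0.847% in pLKO, 0.484% (0.364 to 0.643) in shFABP4 1 and 0.143% (0.131 to 0.156) in shFABP4 2. It was lower in both shFABP4 libraries, by very different amounts.

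S100A6 held 70.8% in both pLKO libraries, 74.6% (73.8 to 75.5) in shFABP4 1 and 75.4% (75.2 to 75.5) in shFABP4 2. S100A11, calgizzarin, which binds annexin A1, held 4.67% and 4.56% in pLKO, 4.46% in shFABP4 1 and 5.48% in shFABP4 2, so its groups overlapped. S100A13, which takes part in the export of FGF1 and interleukin 1 alpha, held 3.11% and 3.21% in pLKO, 4.70% in shFABP4 1 and 3.45% in shFABP4 2. Subtracting background left S100A13 at 4.39% in shFABP4 1, still above both pLKO libraries. S100A4 held 0.0797% and 0.0689% in pLKO, 0.402% (0.294 to 0.549) in shFABP4 1 and 0.119% (0.107 to 0.131) in shFABP4 2. Its mean share in shFABP4 was 3.50 times that in pLKO, the highest such ratio of the 8, and 2.83 times with background subtracted. S100A2 held 0.438% and 0.430% in pLKO, 0.763% (0.608 to 0.956) in shFABP4 1 and 0.531% (0.506 to 0.556) in shFABP4 2, a mean 1.49 times that in pLKO and 1.31 times with background subtracted. The groups did not overlap for 7 of the 8 genes, 5 above and 2 below. Measured in the same way against the S100 total, 76.9% of the 1033 high-signal genes defined further on did not overlap either (33.6% above and 43.3% below), so that count is no result about the S100 genes.

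**Figure D2:**
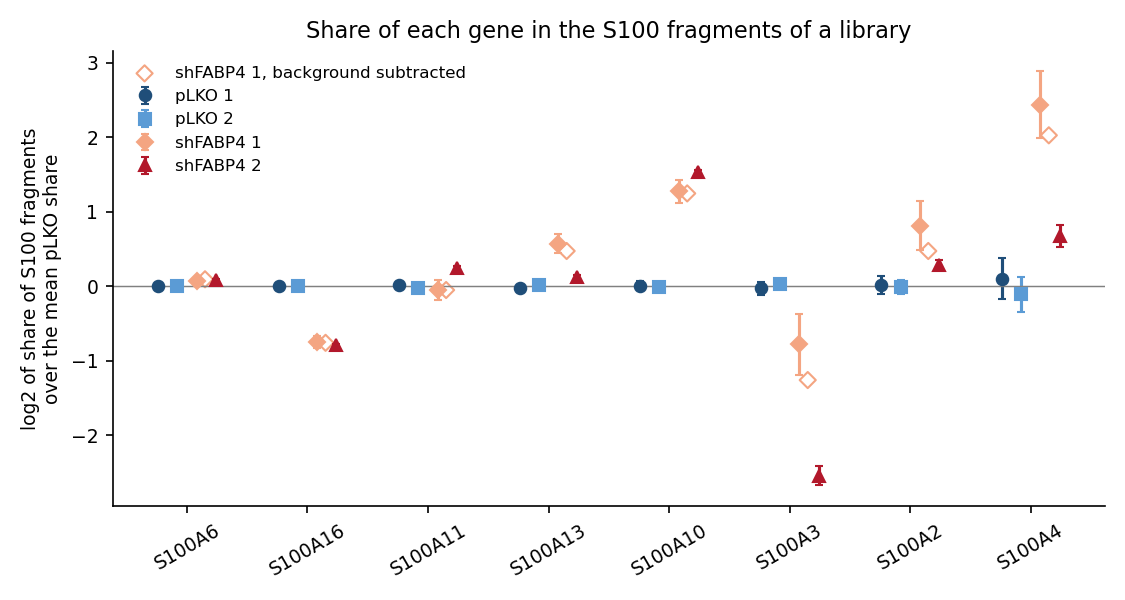
The log2 of the share of each gene in the S100 fragments of a library over its mean pLKO share, with 95% Wilson intervals for counting error and, as open diamonds, shFABP4 1 with expected background subtracted. S100A10, S100A4, S100A2, S100A13 and, by little, S100A6 lie above 0 and S100A16 and S100A3 below 0 in both shFABP4 libraries. S100A11 lies on both sides.

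Ratios between single genes showed the same pattern without the sum. There were 0.301 and 0.305 S100A10 fragments per S100A11 fragment in pLKO, against 0.758 in shFABP4 1 and 0.739 in shFABP4 2. The shFABP4 mean was 2.47 times the pLKO mean, and the ratio was 0.745 in shFABP4 1 once background was subtracted. These genes lie next to each other at chr1:151982915-151993859 and chr1:152032506-152047907, and their GC content was nearly equal (51.3% and 51.9%). Their merged exons differed in length, at 1012 and 649 bases. In the high-signal fit described further on, correction for GC content and exon length moved the log2 change of S100A10 from 1.52 to 1.80. That of S100A11 moved from 0.22 to 0.85.

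For S100A16 there were 0.264 fragments per S100A6 fragment in both pLKO libraries, against 0.150 in shFABP4 1 and 0.144 in shFABP4 2. The shFABP4 mean was 0.556 times the pLKO mean. The GC content of these genes was 57.8% and 59.9%, and their merged exons held 1701 and 971 bases. For S100A13 per S100A16 the ratios were 0.167 and 0.172 in pLKO, 0.421 in shFABP4 1 and 0.318 in shFABP4 2. S100A11 per S100A6 was at 0.0659 and 0.0644 in pLKO, 0.0598 in shFABP4 1 and 0.0727 in shFABP4 2, with the shFABP4 libraries on either side of pLKO. The pairs were chosen with values of these data known, 6 were computed, and with 2 libraries against 2 an exact two-sided permutation test cannot go below p = 0.333, so these ratios are a description.

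**Figure D3:**
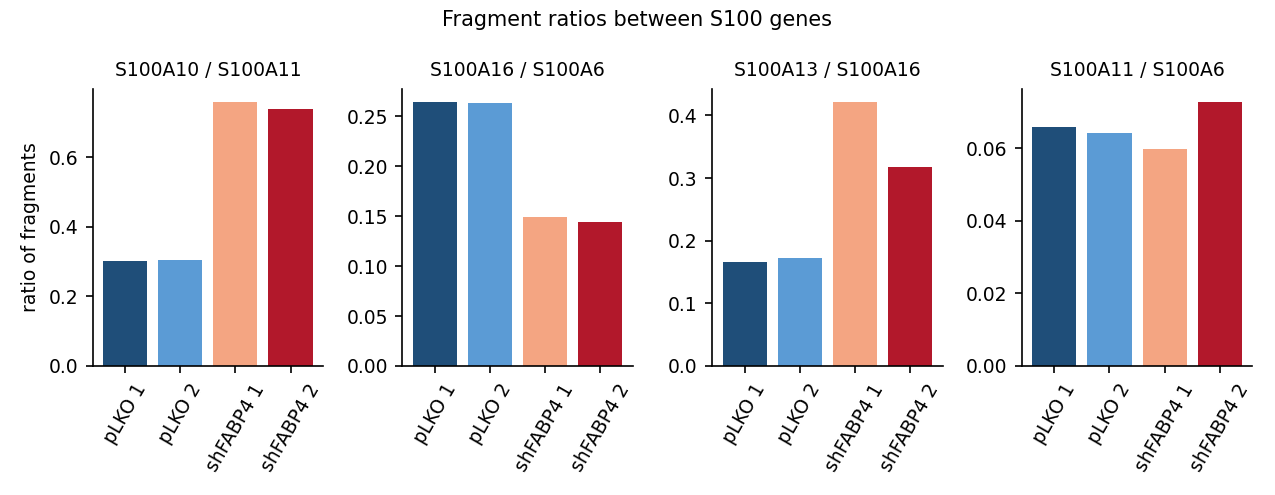
Ratios of fragment counts between S100 genes in each library, with bars from 0 and 1 bar per library. S100A10 per S100A11 is 0.301 and 0.305 in pLKO against 0.758 and 0.739 in shFABP4, while S100A11 per S100A6 has the shFABP4 libraries on both sides of pLKO.

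The 2 groups were then compared gene by gene. Of the 8 genes, 0 passed an adjusted p of 0.05 in edgeR's quasi-likelihood test over all 14735 genes that passed the filter on low counts, where 0% of all genes passed. All 8 genes passed that filter. An unadjusted p under 0.05 was reached by 1 of them, S100A3, against 12.3% of all tested genes, and DESeq2 called S100A3 as well (-3.16, adjusted p = 0.00942), as it did 4.88% of genes, while limma-voom called 0. S100A3 had the largest log2 fold change of the 8 at -3.09 (SE 0.65, adjusted p = 0.391, edgeR). The fitted median of the 8 genes was -0.71, against 0.34 over all tested genes. Here both shFABP4 libraries lay below both pLKO libraries for 3 of the 8 (S100A3, S100A6 and S100A16) and above for 0, where 26.1% and 28.5% of all tested genes did. This fit scales shFABP4 1 by genes whose counts there include background.

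A second fit was restricted to high-signal genes, 1033 coding genes for which the RNA signal foreseen in shFABP4 1 from the remaining 3 libraries was 5 or more times its expected background. This set was defined with earlier results of these data known. It held 6 of the 8 S100 genes. S100A2 lay just outside, with 4.93 times its background, and S100A4 further out with 1.55 times, whereas S100A3 was the nearest inside with 7.35 times. Of the 6, S100A10 rose, 5 did not pass, and 0 fell, while in the whole set 36.9% of genes passed, 19.0% as increases and 17.9% as decreases. The fitted median of the 6 was 0.20, against -0.03 over the set.

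S100A10 was at 334 and 332 normalised CPM (scaled with TMM within this set) in pLKO, at 758 in shFABP4 1 and at 1143 in shFABP4 2. Both shFABP4 libraries lay above both pLKO libraries, and with background subtracted shFABP4 1 was at 734. The mean went from 333 ± 1.67 to 951 ± 272 (SD, n = 2 each), a change of 1.52 (log2, SE 0.24, adjusted p = 0.0214, edgeR). The call held without either pLKO library (1.52 and 1.51), and with GC content and exon length corrected for it stood at 1.80 (adjusted p = 0.0263, edgeR), where 26.3% of the set passed. It ended with scaling by all fragments (0.94, adjusted p = 0.769, edgeR), which counts the background as part of the library, and in a larger set at 2 times background (1.36, adjusted p = 0.0805, edgeR). Over all alternatives its adjusted p ran from 6.07e-09 to 0.769. With the set chosen on RNA signal foreseen from the pLKO libraries alone, S100A10 also passed (1.66, adjusted p = 0.0341, edgeR), as did 21.9% of that set. The background estimate behind that set still used both shFABP4 libraries. In such whole-culture libraries, a change in the number of cells with a transcript and a change in its amount per cell cannot be told apart.

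S100A16 was at 4442 and 4461 normalised CPM in pLKO, 2504 in shFABP4 1 and 3062 in shFABP4 2. Both shFABP4 libraries lay below pLKO, and the change of -0.68 (log2, SE 0.18, adjusted p = 0.0519, edgeR) missed the threshold. It passed in DESeq2 and limma-voom, which called 481 and 479 of the 1033 genes, and with background subtracted, where 411 passed. With GC content and exon length corrected for, it was at -0.26 (adjusted p = 0.326, edgeR). S100A3 was at 194 and 202 in pLKO, 109 in shFABP4 1 and 40.3 in shFABP4 2. It did not pass either (-1.62, SE 0.53, adjusted p = 0.0839, edgeR), with -2.25 without shFABP4 1 and -0.87 without shFABP4 2, and with GC content and exon length corrected for it was at -0.86. DESeq2 and limma-voom called S100A3 too, among the 481 and 479 genes they called.

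S100A13 was at 740 and 766 in pLKO, 1054 in shFABP4 1 and 973 in shFABP4 2, so the groups did not overlap. Its change of 0.43 (log2, SE 0.13, adjusted p = 0.0678, edgeR) did not pass, though it did in the set chosen from the pLKO libraries (0.56, adjusted p = 0.0478) and with GC content and exon length corrected for (0.70, adjusted p = 0.0354). S100A6 was at 16829 and 16926 in pLKO, 16751 in shFABP4 1 and 21276 in shFABP4 2. Thus shFABP4 1 lay just below pLKO and shFABP4 2 above it, and the change did not pass (log2 0.17, SE 0.19, adjusted p = 0.499, edgeR). S100A11 was at 1110 and 1089 in pLKO, 1001 in shFABP4 1 and 1547 in shFABP4 2, again on both sides (0.22, SE 0.26, adjusted p = 0.524, edgeR). With GC content and exon length corrected for, S100A6 was at 0.88 (adjusted p = 0.0571) and S100A11 at 0.85 (adjusted p = 0.111, edgeR), and neither passed. With the replicate block added to that correction S100A11 passed (0.80, adjusted p = 0.0318, edgeR), as did 379 of the 1033 genes. The fitted values of S100A6, S100A11 and S100A13 turned negative when libraries were scaled by all fragments (-0.46, -0.35 and -0.32). Without shFABP4 1 all 6 genes passed, as did 92.6% of the set, and without shFABP4 2 4 of the 6 passed, as did 77.3%. Over all tested genes the same omissions called 6 and 8 of the 8 members, where 66.9% and 85.9% of genes passed. Both shFABP4 libraries lay above both pLKO libraries for 2 of the 6 genes and below for 2, against 38.0% and 41.7% of the set.

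**Figure D4:**
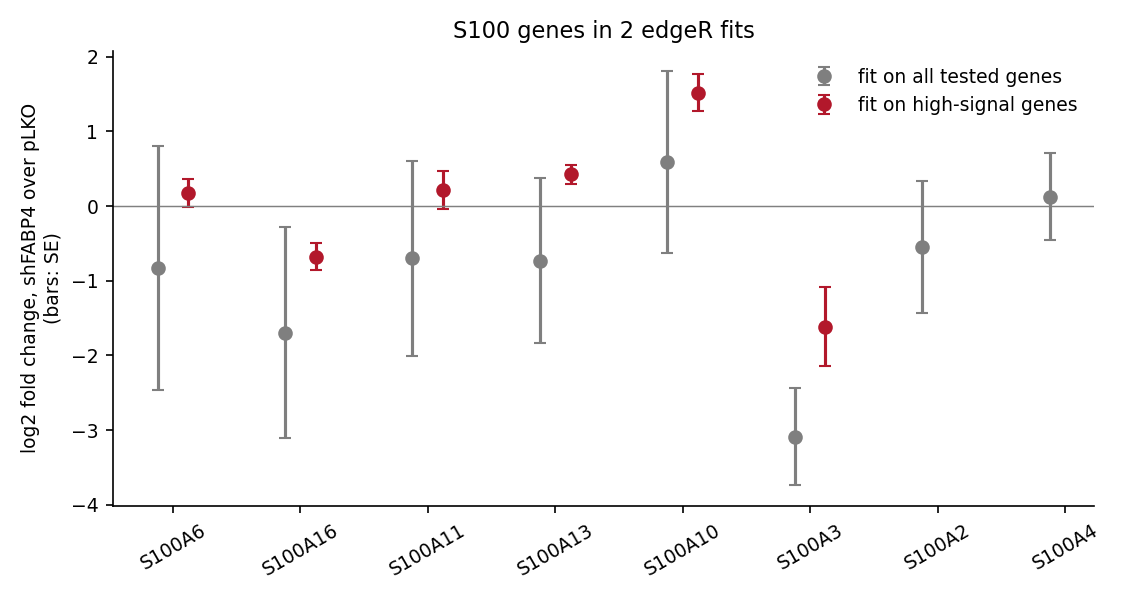
The log2 fold change of each S100 gene, shFABP4 over pLKO, with its SE, in the fit on all tested genes (grey) and in the fit on high-signal genes (red), which does not hold S100A2 and S100A4. S100A10 has a positive value in both fits and S100A16 and S100A3 a negative one, while S100A6, S100A11 and S100A13 change sign between the fits.

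S100A2, first described as a gene lost in breast tumour cells, had 571 and 867 fragments in the pLKO libraries, against 74 in shFABP4 1 and 1741 in shFABP4 2. S100A4, which binds non-muscle myosin and is known from studies of metastasis, had 104 and 139 in pLKO, 39 in shFABP4 1 and 389 in shFABP4 2. As CPM, S100A2 was at 63.5 and 62.6 in pLKO, 29.1 in shFABP4 1 and 85.2 in shFABP4 2. S100A4 was at 11.6 and 10.04 in pLKO, 15.4 (95% Poisson interval 10.9 to 21.0) in shFABP4 1 and 19.0 (17.2 to 21.0) in shFABP4 2. Over all tested genes neither passed, with log2 fold changes of -0.55 (SE 0.89, adjusted p = 0.751) for S100A2 and 0.13 (SE 0.58, adjusted p = 0.918, edgeR) for S100A4.

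How far the members stood above background in shFABP4 1 could be read against S100 genes that the other libraries do not use. The 13 other family genes had at most 6 fragments in a pLKO library, and 7 of them had 0 in all of the other 3 libraries. In shFABP4 1 all 13 had a fragment, from 1 to 112 (S100A7A), at 0.523 to 13.1 times the expected background with a median of 2.40. S100A6 stood at 456 times, S100A11 at 63.0, S100A16 at 38.9 and S100A10 at 30.6, above all 13. S100A13 stood at 12.6, with 1 of the 13 higher. S100A2 stood at 4.52 and S100A4 at 3.89, with 3 of the 13 higher in each case, and S100A3 at 3.42 with 5 higher. The values of S100A2, S100A3 and S100A4 in that library thus lay within the range of S100 genes that were near 0 elsewhere. That of S100A13 also lay within this range, near its upper end. S100P had 0 and 1 fragments in the pLKO libraries, against 12 in shFABP4 1 and 30 in shFABP4 2 (named after its values were seen). It was the 1 of the 13 that passed the filter on low counts and did not pass the test (adjusted p = 0.391, edgeR).

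**Figure D5:**
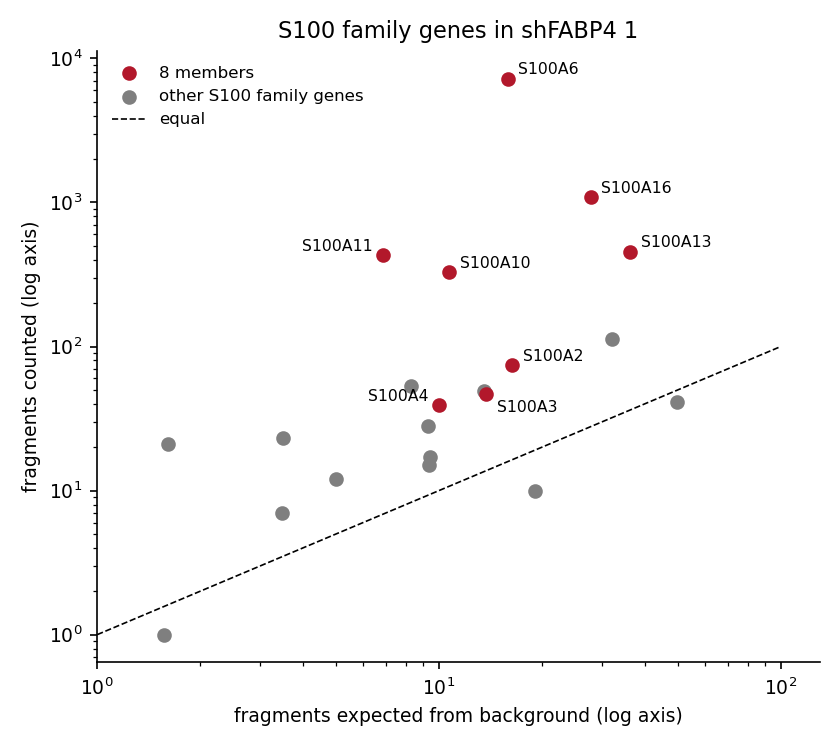
Fragments counted in shFABP4 1 against those expected from background (both axes log) for the 8 members (red) and 13 other S100 family genes (grey), with a dashed line of equality. S100A6, S100A16, S100A11 and S100A10 stand above all other family genes by multiple of background. S100A13 lies below 1 of them, and S100A2, S100A3 and S100A4 lie among them.

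The region from S100A10 to S100A13 spans chr1:151982915-153631360 and holds 62 coding genes. Of these, the 8 S100 genes were the only ones with at least 20 fragments in each pLKO library, and 45 had 0 in both. The S100A10 and S100A11 pair lies 1487 kb from the other 6, which sit within 96.8 kb. In shFABP4 1, the 41 coding genes of this region with no fragment elsewhere held 711 fragments against 596 expected, 1.19 times the background rate used. The nearest expressed coding genes outside the region were THEM4 and TDRKH on the S100A10 side and CHTOP and SNAPIN on the S100A13 side. SNAPIN, a protein of vesicle fusion, had 736 and 1173 fragments in the pLKO libraries, against 52 in shFABP4 1 and 1207 in shFABP4 2 and did not pass among high-signal genes (-0.31, adjusted p = 0.200, edgeR). The other 3 were not in that set and did not pass over all genes (adjusted p from 0.392 to 0.859, edgeR).

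Partners of S100 proteins were described from a list of 29 genes, 6 of them in the high-signal set, of which 3 rose, 1 fell and 2 did not pass, where 36.9% of the set passed. Their median log2 fold change was 0.32, against -0.03 over the set. One of the 3, CACYBP, the calcyclin binding protein, entered the set only through its level in shFABP4 2. Its RNA signal foreseen from the pLKO libraries alone was 4.35 times background, under the limit of 5, so its call is no support for a change. In the set chosen from pLKO alone 5 partners were present, 2 rose, 0 fell and 3 did not pass, with a median of -0.05, where 21.9% of that set passed. Those that rose were ANXA1, the partner of S100A11 (0.99, adjusted p = 0.0173, and 1.12, adjusted p = 0.0267, in the set from pLKO, edgeR), and ANXA5 (0.82, adjusted p = 0.0173, and 0.95, adjusted p = 0.0248, edgeR). TPM2, a tropomyosin, was at -0.93 (adjusted p = 0.0214), and at -0.79 in the set from pLKO, where it did not pass (adjusted p = 0.0504, edgeR). ANXA2, the partner of S100A10, was at 2737 and 2877 in pLKO, 2671 in shFABP4 1 and 1697 in shFABP4 2 and did not pass (-0.37, SE 0.27, adjusted p = 0.332, edgeR; named after its values were seen).

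S100A10 is also known as a receptor for plasminogen, and 4 of 8 genes of the plasminogen system were in the set. Of these 1 rose, 1 fell and 2 did not pass, where 36.9% of the set passed. In the set chosen from pLKO alone the counts were the same, beside 21.9%. PLAU, urokinase, rose by 0.55 (adjusted p = 0.0331, edgeR), and the cathepsins CTSB (1.02, adjusted p = 0.0964) and CTSD (-0.09, adjusted p = 0.792, edgeR) did not pass. Among 39 other EF-hand proteins 11 were in the set, and 2 rose, 1 fell and 8 did not pass, with a median of 0.40 against -0.03 over the set. That is 3 of 11 beside 36.9% of the whole set. In the set chosen from pLKO alone 1 of 11 rose and 0 fell, beside 21.9%. MYL12A, a myosin light chain, rose by 2.12 (adjusted p = 0.0101), and in the set from pLKO by 2.25 (adjusted p = 0.0220, edgeR). CIB1, a calcium and integrin binding protein, was at -1.47 (adjusted p = 0.0240) and in the set from pLKO at -1.34, where it did not pass (adjusted p = 0.0526, edgeR), and MYL12B did not pass (0.58, adjusted p = 0.0948, edgeR).

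The genes whose pattern over the 4 libraries was most like that of S100A6, by Euclidean distance of log2 normalised CPM plus 1 centred on pLKO, were SNRPD2 (0.0525), ERGIC3 (0.0602) and ATP5F1D (0.104), where the median over 1032 high-signal genes was 1.04. SNRPD2, a core protein of the spliceosome, was at 1951 and 2008 normalised CPM in pLKO, 1972 in shFABP4 1 and 2416 in shFABP4 2. These 4 libraries share their depth and background, so the likeness is a description.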

How the data were processed

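RNA sequencing of 4 Daoy libraries was analysed, grouped by their treatment label. As the protocols in the labels state, mRNA was captured on beads and Tn5 was used for fragmentation. The submitters' processing notes list HISAT, StringTie, FastQC and GRCh38. Counts were made by the authors with featureCounts 2.0.0 with GENCODE 38, per the file headers, as raw fragments for each gene name, with chimeric fragments left out and no strand, multi-mapping or multi-overlap option set. The exon length of each gene name came from the deposited table. A broken entry of 7 lines (gene ANK2) was left out.

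GENCODE 29 gave gene types and GC content (63.6% of gene names matched, 99.1% of these at the same position, and a GC value was found for 91.5% of genes averaging 20 fragments or more). The test was the robust two-sided quasi-likelihood F test of edgeR 4.0.16 (R 4.3.3) after TMM scaling and filterByExpr (count 10, total 15), with p-values adjusted by Benjamini-Hochberg across every gene in a fit and called under 0.05. DESeq2 1.42.0 and limma 3.58.1 were alternatives. Background in shFABP4 1 came from 2656 coding genes at 0 in the other 3 libraries, in 6 bins of GC content. Tested on simulated data with 200 changed genes, the fit on 14735 genes recovered 0 at a fold of 4. The fit on 1033 high-signal genes recovered 200 (fold 4, 7 false calls) and 7 (fold 1.5). The simulated counts had the same spread in every gene and library and no added background in shFABP4 1. They therefore do not give the rates of recovery or of false calls in these data.

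The members, lists and tests were chosen with earlier results of these data known. The text names all 8 members, other S100 genes with at least 20 fragments in a pLKO library (0 qualified), up to 4 members per list by p in the high-signal fit, the 2 nearest expressed neighbours on each side and the 3 genes most like S100A6. Some list members that the rule would name are not reported here. Marker lists are given mainly as sums. By the same naming rule, GLI1, GLI2, MBP, GFAP, COL1A1, ITGAM, FCER1G, PMEL and KRT10 had the smallest p in their lists over all tested genes (adjusted p from 0.391 to 0.822, edgeR). Of the markers, VIM and KRT10 were in the high-signal set, and VIM passed there. Promoter sequences were matched by symbol to RefSeq for all 8 members.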

Additional observations from a re-analysis of the deposited data

How the results depend on the processing

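Over all tested genes 0 of the 8 S100 genes passed, and DESeq2 called 1. Leaving out 1 library gave 0 to 8, with 8 without shFABP4 replicate 2, 6 without shFABP4 replicate 1 and 0 without either pLKO replicate. With an shFABP4 library left out, the spread comes from pLKO alone and the lone library is assumed to vary as little. Among high-signal genes 1 of 6 passed. Scaling by all fragments gave 0. Upper-quartile scaling, the replicate block, correction for GC content and length, the set at 10 times background, the set from pLKO alone and subtracted background gave 2 each. DESeq2, limma-voom, and the GC and length correction together with the replicate block gave 3 each. Background subtracted at the rate of the S100 region (chosen after seeing the data) also gave 3. Over the whole set, upper-quartile scaling called 371, the GC and length correction 272 and subtracted background 411 of 1033 genes. The set at 10 times background had 212 of 529 called. Of the 1033, DESeq2 called 481, limma-voom 479, the correction with the block 379 and the region rate 412. Leaving out 1 library gave 1 to 6, with 6 without shFABP4 replicate 1 and 4 without shFABP4 replicate 2. Over all genes, directions turned for S100A10 in limma-voom (-0.75) and with the replicate block (-0.13), and for S100A4 with no low-count filter (-0.063). With 1 library left out, S100A10 ranged from -2.90 to 1.43, S100A4 from -1.72 to 0.59, S100A2 from -3.36 to 0.19, S100A11 from -4.22 to 0.15 and S100A13 from -3.60 to 0.024. Among high-signal genes, scaling by all fragments turned S100A6 (-0.46), S100A11 (-0.35) and S100A13 (-0.32), and S100A6 was at -0.0076 in the set at 2 times background. With 1 library left out there, S100A6 ranged from -0.012 to 0.38 and S100A11 from -0.14 to 0.54. The cause was not tested. The replicate numbers are not shown to pair libraries (correlation of same-numbered deviations across genes 0.0106 over all tested genes and 0.138 over high-signal genes, with 2 pairs). With the replicate block 28 of 14735 genes passed in place of 0, and 465 of 1033 high-signal genes in place of 381. Over all tested genes, DESeq2 called 719, the GC and length correction with the block 92, no low-count filter 69, and leaving out shFABP4 replicate 1 or 2 called 10242 and 23895. Among high-signal genes, scaling by all fragments called 0, leaving out pLKO replicate 1 or 2 called 127 and 125, leaving out shFABP4 replicate 1 or 2 called 957 and 799, and the set from pLKO alone 224 of 1024. Depth limits S100A2, S100A3 and S100A4 in shFABP4 1, with 74, 47 and 39 fragments.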
